A study of Mus musculus with 18 samples.

Results

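Cldn1, Jaml, F11r, Tjp1, Ocln, Cdh1 and Epcam are 7 genes of tight junctions and of epithelial adhesion, and their RNA was followed here through 18 arrays of mouse dendritic cells and sorted organ cells. The genes were selected by name from the 19752 genes that the array gave with a single symbol, and each had 1 probe set, so no choice between probe sets was needed. They were proposed with results of these arrays already in view, in which Cldn1 differed by genotype in lung CD11b+ cells. For that contrast the values below are therefore a description with no test. The BRAF arrays came from BRAFV600E(CA-flox) mice positive for CD11c-Cre, and the WT arrays from littermates that are labelled with the same floxed allele and are negative for CD11c-Cre. CD11c-Cre is a recombinase driven by the promoter of the integrin CD11c, so the mutant kinase is switched on in cells that use this promoter and not in dendritic cells alone. Dendritic cells grown from the marrow of mice aged 5 weeks (BMDC), left untreated and sorted for viability, CD11c and CD11b, gave 3 arrays each for BRAF and WT. CD11b+ cells of liver and of lung, and CD103+ cells of lung, came from unmanipulated mice aged 14 weeks, with 2 arrays each for BRAF and WT and no further gate stated.

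Tight junctions seal the space between epithelial cells. Claudins and occludin span the membrane, junctional adhesion molecules of the immunoglobulin superfamily sit beside them, and scaffold proteins such as ZO-1 tie them to actin. E-cadherin holds cells together in the adherens junction, and EpCAM is an adhesion molecule that binds claudins. Dendritic cells also use such proteins: those that sit in or under an epithelium can pass processes between its cells without opening the barrier, and E-cadherin and EpCAM are well known on Langerhans cells of the skin.

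Values are log2 of the deposited intensity, so a step of 1 is a doubling. Array medians lay between 93.7 and 113.2 on the linear scale. The log2 values of BRAF BMDC replicate 2 and WT liver CD11b+ replicate 3 had interquartile ranges of 1.90 and 1.92. The other 16 arrays had 2.41 to 2.99. BMDC genotype differences of the tested members are given with and without that BRAF array. Other BMDC values include it unless stated. Itgax, which encodes CD11c, read 10.66 to 12.18 on all 18 arrays. Itgae, which encodes CD103, read 10.60 to 12.18 on the lung CD103+ arrays and 5.74 to 7.65 on the others. Itgam, which encodes CD11b, read 9.32 to 11.92 on the BMDC and CD11b+ arrays. On the lung CD103+ arrays it read 8.39 and 8.21 in BRAF and 6.87 and 6.90 in WT, a difference of 1.41 ± 0.42 (adjusted p = 0.377). Whether replicates came from separate animals or cultures is not stated, and a p-value here covers the spread between arrays, which may be technical. A gene was tested when it exceeded the 30th percentile of the array on at least 2 arrays, which 15365 genes did, and it was called at an adjusted p below 0.05 (limma, Benjamini-Hochberg over those genes). All members but Ocln were tested.

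The promoters of Cldn1, Jaml and Epcam are shown because these 3 members had the most similar levels over the 18 arrays. They are RefSeq windows of 300 bases on GRCm38.p6, from 250 bases before to 50 bases after an annotated start site. For Jaml that start site lies downstream of the first base listed for the gene, 45079153. An entry was found for 6 of the 7 members (all but Cdh1). The Cldn1 window is chr16:26371790-26372089 on the minus strand, the Jaml window chr9:45078933-45079232 on the plus strand, and the Epcam window chr17:87635729-87636028 on the plus strand. Capitals mark the motifs searched, on either strand.
Cldn1: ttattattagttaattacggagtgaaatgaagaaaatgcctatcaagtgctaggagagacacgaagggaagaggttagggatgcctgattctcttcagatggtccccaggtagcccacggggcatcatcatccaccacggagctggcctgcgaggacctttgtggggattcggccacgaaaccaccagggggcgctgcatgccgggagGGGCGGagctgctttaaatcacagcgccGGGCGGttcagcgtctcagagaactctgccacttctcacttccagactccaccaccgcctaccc
Jaml: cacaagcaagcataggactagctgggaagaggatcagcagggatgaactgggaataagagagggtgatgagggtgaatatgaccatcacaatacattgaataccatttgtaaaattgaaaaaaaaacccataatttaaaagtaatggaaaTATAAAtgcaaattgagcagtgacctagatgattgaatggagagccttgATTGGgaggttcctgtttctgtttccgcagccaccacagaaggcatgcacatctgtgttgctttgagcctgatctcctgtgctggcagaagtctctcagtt
Epcam: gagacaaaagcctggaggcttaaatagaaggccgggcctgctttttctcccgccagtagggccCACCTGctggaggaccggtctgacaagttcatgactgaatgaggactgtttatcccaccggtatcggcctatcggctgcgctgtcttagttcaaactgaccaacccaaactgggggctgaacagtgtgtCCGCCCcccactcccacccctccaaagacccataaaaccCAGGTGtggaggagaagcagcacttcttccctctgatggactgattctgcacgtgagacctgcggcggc
Positions count from the start site of each window as 1, with no 0, to the leftmost base of a match. The GC box GGGCGG, held by 35.7% of 32851 promoter windows, stood at positions -42 and -14 of Cldn1 and on the opposite strand at -58 of Epcam. The letters CAGGTG, an E-box bound by the Snail and Zeb repressors and found in 20.2% of the windows, stood in Epcam at -187 on the opposite strand and at -19. Jaml held TATAAA at -100 (in 13.6% of the windows) and CCAAT on the opposite strand at -51 (in 37.4%). TGANTCA, the AP-1 site (in 7.81%), and CCGGAAG, an ETS core (in 8.86%), matched none of these 3 windows. No motif searched was shared by all 3 windows, and no motif here overlapped another. A match is a description of the letters and not a binding site.

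Cldn1 encodes claudin-1, a strand-forming protein of the tight junction. In lung CD103+ cells it read 11.62 and 12.78 in BRAF and 12.80 and 12.83 in WT. In lung CD11b+ cells it read 5.98 and 8.04 in BRAF, against 11.02 and 10.27 in WT. Every BRAF array of the lung CD11b+ cells lay below both WT arrays. The BMDC arrays read 8.76, 7.17 and 9.13 in BRAF and 10.30, 9.97 and 9.93 in WT. In liver CD11b+ cells the values were 5.31 and 6.33 in BRAF and 8.06 and 7.41 in WT. The genotypes did not overlap in any of the 4 populations, with BRAF the lower in each. In lung CD103+ cells the nearest arrays almost met, at 12.78 in BRAF and 12.80 in WT. The share of all genes without overlap was not counted. Lack of overlap is therefore only a description, for every gene and marker list here and below, and a weak one in groups of 2 arrays. In bulk RNA such as this, fewer cells of a type and less RNA per cell cannot be told apart.

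The lung CD11b+ difference of Cldn1 was -3.64 ± 0.66 (SE) on the log2 scale, and the WT level was 12.4 times the BRAF level. Of all tested genes 0.338% were called in that contrast, and Cldn1 was the member among them, which is the result it was proposed with. Left out in turn, the 4 lung CD11b+ arrays gave -2.60 (without BRAF replicate 1) to -4.67 (without BRAF replicate 2). In BMDC the difference was -1.72 ± 0.54 (adjusted p = 0.368, limma), and without BRAF BMDC replicate 2 it was -1.13. In liver CD11b+ cells it was -1.91 ± 0.66 (adjusted p = 0.251), and neither passed the threshold. In lung CD103+ cells it was -0.62 with a 95% interval of -2.03 to 0.79, and without BRAF lung CD103+ replicate 1 it was -0.04.

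**Figure D1:**
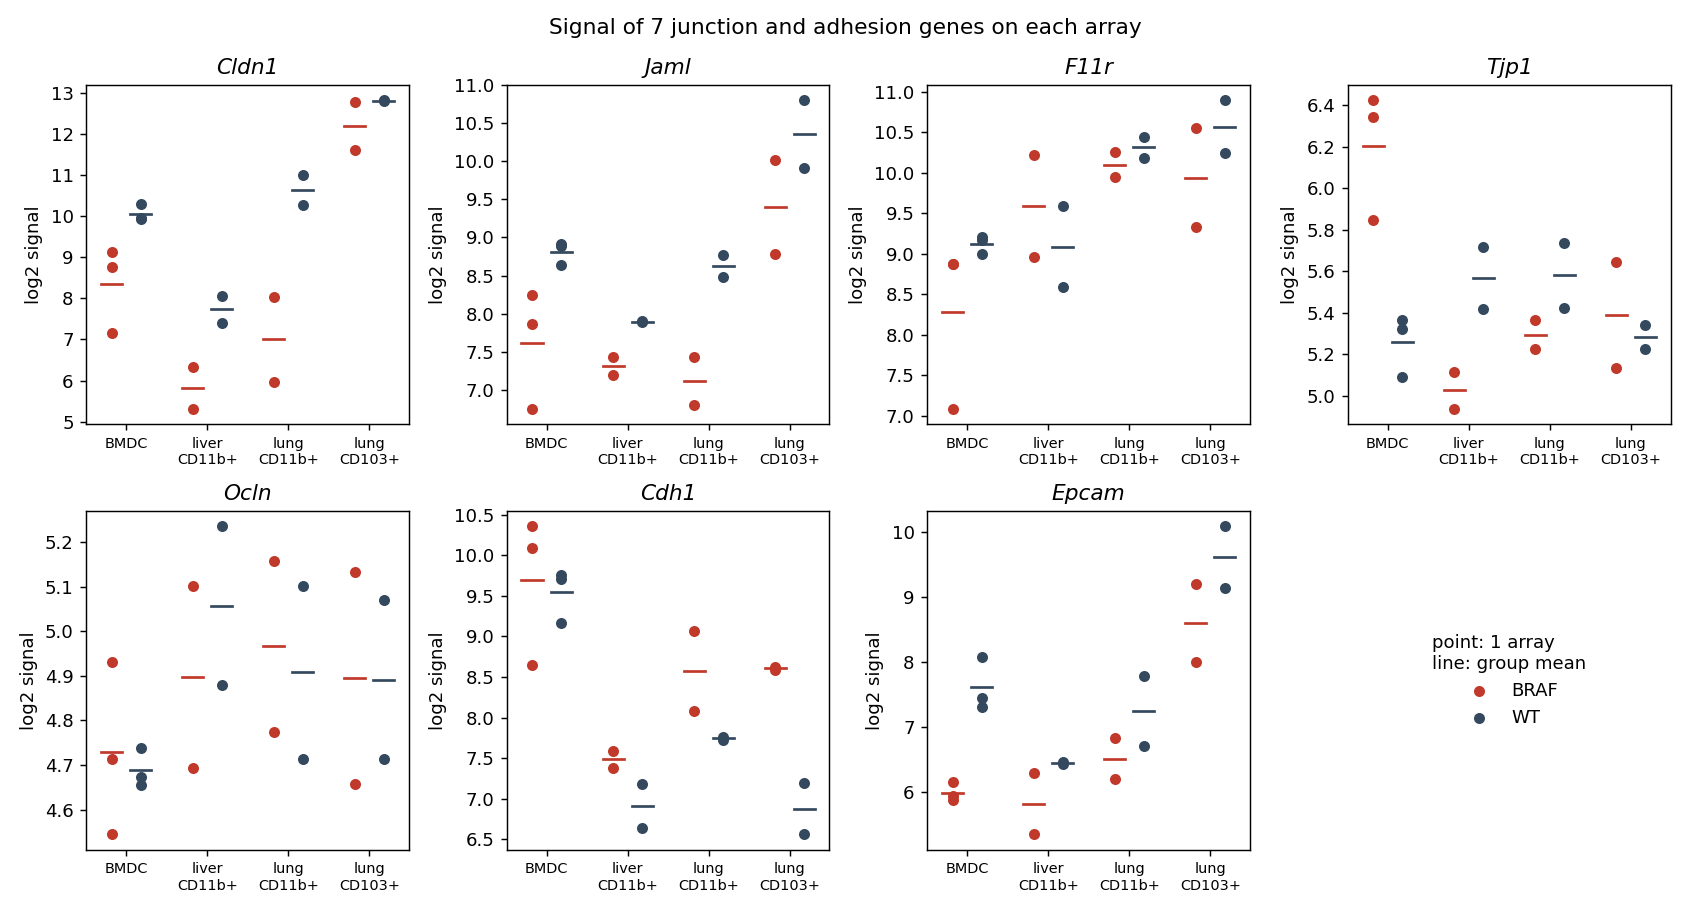
Log2 signal of the 7 members (one panel each, with its own vertical scale) on every array, with BRAF points left of WT points in the 4 populations and a line at each group mean. Cldn1 reads lower in BRAF in all 4 populations, from 5.98 and 8.04 against 11.02 and 10.27 in lung CD11b+ cells to 11.62 and 12.78 against 12.80 and 12.83 in lung CD103+ cells.

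Jaml and F11r encode junctional adhesion molecules of the same family. JAML is a leukocyte protein that binds the epithelial receptor CAR, and F11r encodes JAM-A, found on epithelium, endothelium and leukocytes alike. Jaml read 7.87, 6.76 and 8.24 in BRAF BMDC, against 8.91, 8.88 and 8.63 in WT BMDC. It read 7.20 and 7.43 in BRAF liver CD11b+ cells, against 7.89 and 7.90 in WT. In lung CD11b+ cells it read 6.80 and 7.43 in BRAF and 8.49 and 8.77 in WT. As with Cldn1, BRAF lay below WT without overlap in these 3 populations. In lung CD103+ cells the genotypes overlapped, at 8.79 and 10.02 in BRAF and 9.91 and 10.80 in WT.

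No genotype difference of Jaml was called in BMDC, liver CD11b+ or lung CD103+ cells. It was -1.19 ± 0.37 in BMDC (adjusted p = 0.363, limma), and -0.75 without BRAF BMDC replicate 2. In liver CD11b+ cells it was -0.58 (95% interval -1.54 to 0.38) and in lung CD103+ cells -0.95 (-1.92 to 0.01). With 1 lung CD103+ array left out, the lung CD103+ difference ranged from -0.33 (without BRAF replicate 1) to -1.57 (without BRAF replicate 2), and it was -0.51 without WT replicate 3. The lung CD11b+ difference, given as a description, was -1.51 ± 0.45.

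F11r read 8.87, 7.09 and 8.87 in BRAF BMDC and 9.20, 9.16 and 8.99 in WT BMDC. BRAF lay below WT without overlap there, and the lowest array was BRAF replicate 2. Without that array the difference of -0.84 ± 0.47 (adjusted p = 0.737, limma) became -0.25. In all 3 organ populations its genotypes overlapped. Liver CD11b+ cells read 10.22 and 8.96 in BRAF against 9.58 and 8.58 in WT, and lung CD11b+ cells 9.94 and 10.26 against 10.18 and 10.45. Lung CD103+ cells read 9.32 and 10.55 in BRAF and 10.25 and 10.89 in WT. The 95% intervals of the differences ran from -0.71 to 1.73 in liver CD11b+ cells and from -1.85 to 0.59 in lung CD103+ cells, so each interval reached past a doubling in 1 direction. Without WT liver CD11b+ replicate 3, an array of narrow spread, the liver difference of 0.51 became 0.01.

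Tjp1 and Ocln were at the low end of the array. Tjp1 encodes the scaffold ZO-1 and Ocln encodes occludin. Ocln read 4.54 to 5.24 on the 18 arrays, under the 30th percentile of each, and the genotypes overlapped in all 4 populations. Tjp1 read 4.94 to 6.42 and exceeded that percentile on 3 arrays, BRAF BMDC replicates 1 and 3 and WT lung CD11b+ replicate 3. It read 6.34, 5.85 and 6.42 in BRAF BMDC, against 5.36, 5.32 and 5.09 in WT BMDC. All 3 BRAF BMDC arrays lay above all 3 WT BMDC arrays in log2 signal. By rank within the array the genotypes overlapped. BRAF replicate 2, an array of narrow spread, stood at percentile 23.91 and WT replicate 1 at 24.87.

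Tjp1 was the 1 member called in BMDC, higher in BRAF by 0.95 ± 0.20 (adjusted p = 0.0487, limma), where 0.521% of all tested genes were called. Because it entered the test mainly through the arrays where it was high, the call gives no independent support. Without filtering the adjusted p was 0.0540, and leaving out any single BMDC array other than BRAF replicate 2 ended the call, with differences of 0.84 to 1.00 and an adjusted p of up to 0.256. Without BRAF replicate 2 the difference was 1.12 (adjusted p = 0.0138). Quantile normalization of all arrays gave 0.72 (adjusted p = 0.362, limma). In liver CD11b+ cells Tjp1 read 4.94 and 5.11 in BRAF and 5.42 and 5.72 in WT, a difference of -0.54 ± 0.24 (adjusted p = 0.337). It read 5.37 and 5.22 in BRAF and 5.42 and 5.74 in WT in lung CD11b+ cells. Lung CD103+ cells read 5.65 and 5.13 in BRAF and 5.23 and 5.34 in WT, which overlapped.

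Cdh1, which encodes E-cadherin, lay the other way from Cldn1. In lung CD103+ cells it read 8.59 and 8.63 in BRAF, against 7.19 and 6.56 in WT. In lung CD11b+ cells it read 8.08 and 9.07 in BRAF and 7.73 and 7.76 in WT. Liver CD11b+ cells read 7.59 and 7.38 in BRAF and 7.18 and 6.64 in WT. BRAF lay above WT without overlap in all 3 organ populations, and in BMDC, where the values were 10.09, 8.65 and 10.36 in BRAF and 9.76, 9.71 and 9.16 in WT, the genotypes overlapped.

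The lung CD103+ difference of Cdh1 was 1.73 ± 0.46, a 3.33-fold higher BRAF level, and it did not pass the threshold (adjusted p = 0.274, limma). No member was called in lung CD103+ cells, where 0.0846% of all tested genes were, and 2 members had an unadjusted p under 0.05. The liver difference was 0.57 (95% interval -0.41 to 1.56), and 0.31 without WT liver CD11b+ replicate 3. None of the members was called in liver either (2 at an unadjusted p under 0.05), against 0.215% of all genes. In BMDC the difference of 0.16 changed sign without BRAF replicate 3 (-0.17), BRAF replicate 1 (-0.04) or WT replicate 3 (-0.04), and was 0.68 without BRAF replicate 2. The 20 macrophage markers had a summed intensity of 21059 and 12065 in BRAF lung CD103+ cells and 10933 and 5034 in WT lung CD103+ cells, and 20 of 20 exceeded the 30th percentile on each BRAF array against 19 and 12 on the WT arrays. The 13 monocyte and neutrophil markers summed higher in BRAF without overlap in the same 3 organ populations as Cdh1. They summed to 7503 to 14222 in BRAF and 4013 to 6047 in WT liver CD11b+ cells, to 6364 to 10188 in BRAF and 5346 to 5884 in WT lung CD11b+ cells, and to 6388 to 6517 in BRAF and 3383 to 4388 in WT lung CD103+ cells. The part of either list in the Cdh1 differences was not tested.

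Epcam encodes EpCAM, which stabilises claudins in epithelium. It read 5.94, 5.88 and 6.15 in BRAF BMDC, against 8.09, 7.45 and 7.31 in WT BMDC. The BMDC groups were separated by more than the spread of either, and the WT level was 3.08 times the BRAF level. The difference of -1.62 ± 0.38 fell short of the threshold (adjusted p = 0.0872, limma), and it was -1.57 without BRAF BMDC replicate 2. Limma's array weights, which gave less weight to arrays that fitted poorly, called it (-1.69, adjusted p = 0.000219) together with Cldn1 (-1.28, adjusted p = 0.00397), Jaml (-0.93, adjusted p = 0.00151) and Tjp1, while raising the calls over all genes to 1656.

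Epcam in the organs was less separated. It read 6.30 and 5.35 in BRAF and 6.46 and 6.44 in WT in liver CD11b+ cells. Lung CD11b+ cells read 6.21 and 6.83 in BRAF and 7.78 and 6.70 in WT, which overlapped. Lung CD103+ cells read 8.0 and 9.20 in BRAF and 10.09 and 9.14 in WT, which also overlapped. The difference in lung CD103+ cells was -1.01 with a 95% interval of -2.00 to -0.03 before adjustment, and it was -0.41 without BRAF lung CD103+ replicate 1.

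**Figure D2:**
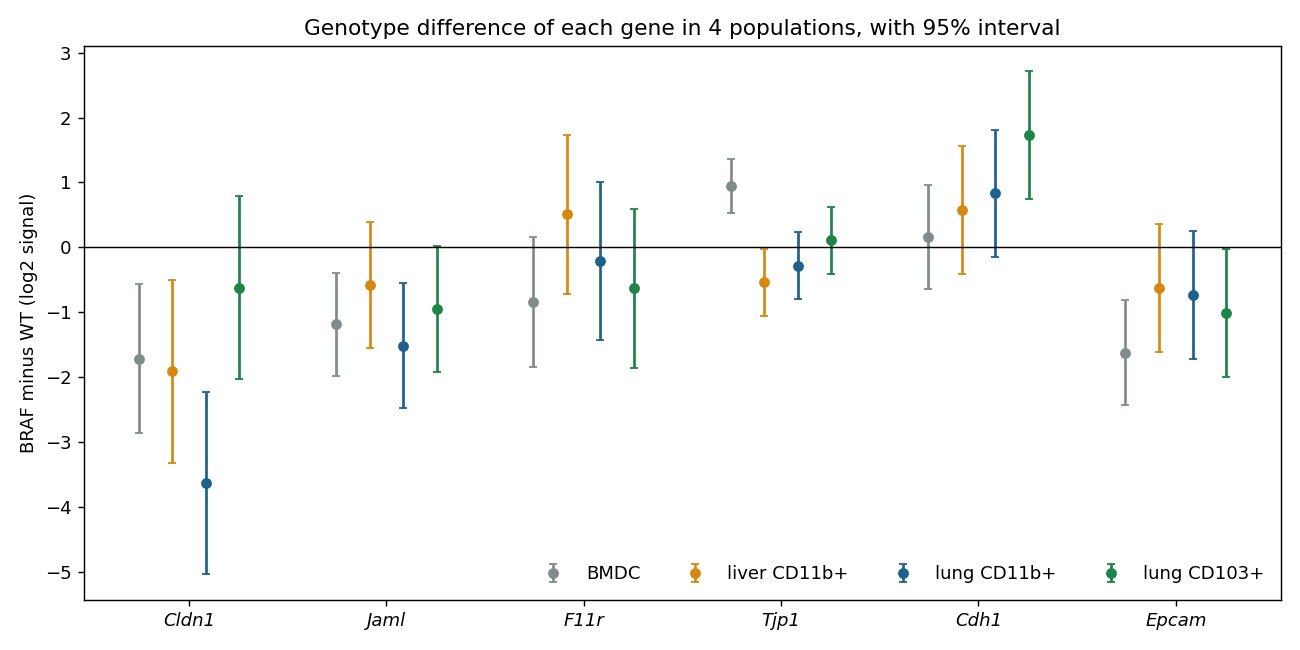
BRAF minus WT log2 difference of the 6 tested members in each population (colours), with the 95% interval of the limma fit before any adjustment for the number of genes. Cldn1, Jaml and Epcam lie below 0 in all 4 populations, Cdh1 lies above 0 in all 4, and Tjp1 lies at 0.95 in BMDC and -0.54 in liver CD11b+ cells.

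The genotype differences in BMDC, liver CD11b+ and lung CD103+ cells were also compared with each other in a limma F test, which called 0.163% of all genes and no member. Tjp1 was the 1 member with an unadjusted p under 0.05 (0.000896). Adjusted p was 0.155 for Tjp1, 0.436 for Cdh1, 0.545 for F11r, 0.584 for Epcam, 0.627 for Cldn1 and 0.767 for Jaml. Without BRAF BMDC replicate 2 its adjusted p was 0.0435, which gives no support, since Tjp1 passed the filter mainly through the BMDC arrays where it was high. Lung CD11b+ cells were left out of that test because of how the members were proposed, so whether the Cldn1 difference there was larger than in the other populations was not tested.

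Across the populations, Cldn1, Jaml and Epcam were each highest in lung CD103+ cells in both genotypes. WT Cldn1 averaged 12.82 ± 0.02 in lung CD103+ cells (SD, n = 2), 10.64 ± 0.53 in lung CD11b+ cells (n = 2), 10.07 ± 0.21 in BMDC (n = 3) and 7.74 ± 0.45 in liver CD11b+ cells (n = 2). The WT lung CD11b+ and BMDC ranges overlapped, and the other neighbours in this order did not. In BRAF the order was 12.20 ± 0.82 in lung CD103+ cells, 8.35 ± 1.04 in BMDC, 7.01 ± 1.46 in lung CD11b+ cells and 5.82 ± 0.72 in liver CD11b+ cells, and the last 3 overlapped stepwise.

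Between the lung populations, CD103+ minus CD11b+, Epcam was higher in lung CD103+ cells by 2.09 ± 0.46 in BRAF (adjusted p = 0.0382, limma) and by 2.37 ± 0.46 in WT (adjusted p = 0.00726). Jaml was higher by 2.29 ± 0.45 in BRAF (adjusted p = 0.018) and by 1.73 ± 0.45 in WT (adjusted p = 0.0462). Cldn1 differed by 5.19 ± 0.66 in BRAF and 2.17 ± 0.66 in WT, given without a test because these lung CD11b+ arrays are those it was proposed with. Cldn1 apart, Jaml and Epcam were the 2 members called in each genotype, beside 1.21% of all genes in BRAF and 3.75% in WT.

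The calls of Jaml and Epcam between the lung populations each rested on single arrays. In WT, Jaml was lost without lung CD11b+ replicate 3 (1.87, adjusted p = 0.172) or 1 (1.59, 0.310), or lung CD103+ replicate 3 (1.28, 0.437). Epcam in WT was lost without lung CD11b+ replicate 3 (1.83, adjusted p = 0.136) or lung CD103+ replicate 1 (1.89, 0.0956). In BRAF, Jaml was lost without lung CD11b+ replicate 1 (1.98, adjusted p = 0.245) or lung CD103+ replicate 2 (1.67, 0.332). Epcam in BRAF was lost without lung CD11b+ replicate 1 (1.78, adjusted p = 0.422) or 2 (2.40, 0.0612), or lung CD103+ replicate 2 (1.48, 0.540). Epcam was also lost in BRAF with median centring (adjusted p = 0.0648), array weights (0.108), only the groups compared (0.107) and without the 2 arrays of narrowest spread (0.0587), and in WT with only the groups compared (0.0572). Jaml was lost in BRAF with only the groups compared (adjusted p = 0.0881) and in WT with median centring (0.110) or no filter (0.0504). The sign stayed positive for both genes in each of these fits.

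F11r did not follow that order, with lung CD103+ minus lung CD11b+ differences of -0.16 (95% interval -1.39 to 1.06) in BRAF and 0.26 (-0.97 to 1.48) in WT. Cdh1 differed by 0.03 (-0.95 to 1.01) in BRAF and -0.87 (-1.85 to 0.11) in WT. Whether F11r differed from Jaml in this contrast was not tested.

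**Figure D3:**
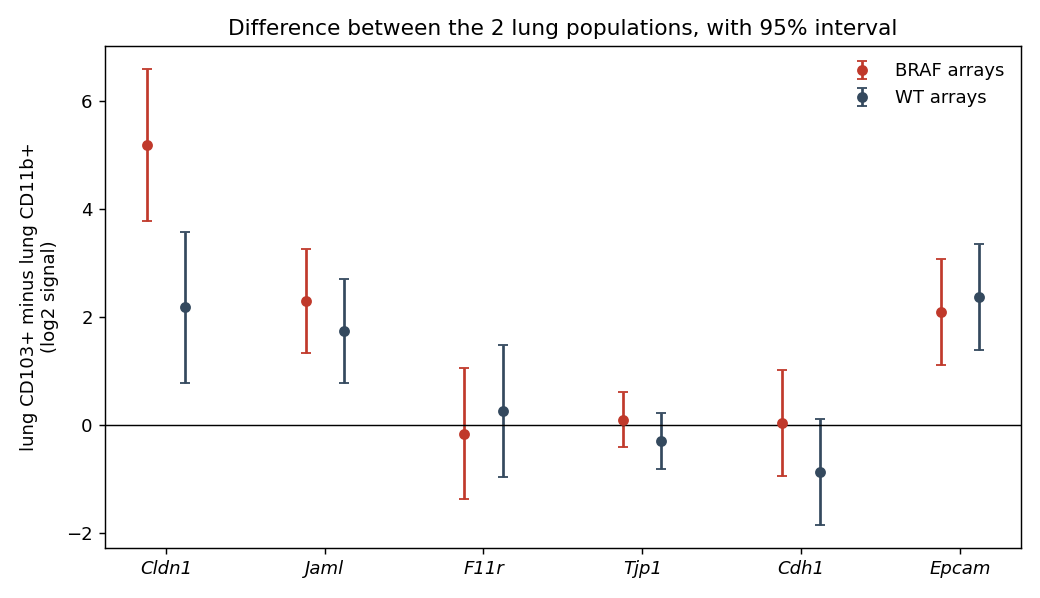
Lung CD103+ minus lung CD11b+ log2 difference of the 6 tested members, BRAF left of WT, with the 95% interval of the limma fit before adjustment. Cldn1 (5.19 in BRAF and 2.17 in WT), Jaml (2.29 and 1.73) and Epcam (2.09 and 2.37) lie above 0, and F11r lies near 0 (-0.16 and 0.26).

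Liver CD11b+ cells were set against lung CD11b+ cells as the same sort from another organ. Cldn1 apart, no member was called in either genotype (limma, 1 at an unadjusted p under 0.05 in each), while 0.176% of all genes were called in BRAF and 2.08% in WT. Cldn1 differed by -1.18 in BRAF (95% interval -2.59 to 0.22) and by -2.91 ± 0.66 in WT, again given without a test. F11r differed by -0.51 (-1.73 to 0.71) in BRAF and -1.23 ± 0.57 in WT (adjusted p = 0.200, limma). For Cdh1 the differences were -1.09 ± 0.46 in BRAF (adjusted p = 0.677) and -0.84 ± 0.46 in WT (adjusted p = 0.259).

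By group mean Cdh1 was highest in the cultured cells. In BRAF the arrays overlapped, with BMDC replicate 2 at 8.65 and lung CD11b+ replicate 2 at 9.07. Relative to the mean of the 3 organ populations, BMDC were higher by 1.48 ± 0.33 in BRAF (adjusted p = 0.012, limma) and by 2.37 ± 0.33 in WT (adjusted p = 0.000176). The BRAF call was lost without BRAF BMDC replicate 1 (1.28, adjusted p = 0.0856) or 3 (1.15, 0.0852), and the WT call held in each fit that left out an array. F11r differed by -1.60 ± 0.40 in BRAF, lower in BMDC (adjusted p = 0.0269), and by -0.87 ± 0.40 in WT (adjusted p = 0.177). That BRAF call was lost without BRAF BMDC replicate 2, where the difference was -1.01 (adjusted p = 0.113), and also without BRAF liver CD11b+ replicate 2 (-1.39, 0.0623), BRAF lung CD11b+ replicate 2 (-1.55, 0.0579) or BRAF lung CD103+ replicate 2 (-1.40, 0.0671). For Tjp1 the difference was 0.97 ± 0.17 in BRAF (adjusted p = 0.00254) and -0.22 in WT (adjusted p = 0.461), with the same limit on the arrays that let it into the test. The members called were 3 of 6 in BRAF and 1 of 6 in WT, beside 6.27% and 15.9% of all genes. The BRAF count includes Tjp1, whose call gives no independent support. Age, culture and sort differed together between BMDC and organ cells and cannot be told apart.

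Over the 18 arrays the levels of Cldn1 and Jaml had a Pearson correlation of 0.93, those of Cldn1 and Epcam 0.88, those of Jaml and Epcam 0.88, and those of Cldn1 and Cdh1 0.02. The arrays share populations and genotypes, so these figures describe the group levels above and carry no test. Among all tested genes the most similar to Cldn1 were Gm11545 (r = 0.966), Ptms (0.958) and Jaml (0.928). Gm11545 (0.944), Ppfibp2 (0.929) and Anks3 (0.928) were the closest to Jaml, and Lrrc1 (0.938), Slc22a23 (0.933) and Gpr52 (0.928) to Epcam. Cdh1 was closest to Lrp12 (0.945), Mak (0.927) and Apbb2 (0.924), and F11r to Tmem131l (0.933), Ankrd44 (0.926) and Smurf2 (0.925). Tjp1 was closest to Mmp13 (0.862), Spry1 (0.854) and Flrt2 (0.840). No member other than Jaml and Cldn1 was among another's closest 3.

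Few other genes of these structures were called by genotype, in contrasts that called 0.0846% to 0.521% of all genes. At those shares few calls or none would be met in any list of this size. Of 24 other claudins on the array 15 were tested, and none was called in any of the 4 genotype contrasts. Their medians were 0.19 in BMDC, -0.20 in liver CD11b+ cells, 0.17 in CD11b+ cells of lung and -0.04 in CD103+ cells. The medians of all genes were 0.00, 0.08, 0.00 and -0.08. BRAF BMDC replicate 2 and WT liver CD11b+ replicate 3, of narrow spread, had the highest 30th percentiles (6.11 and 6.07). The part of these 2 arrays in the claudin medians was not tested. None of 24 tested scaffold and polarity genes was called. In BMDC the 1 call among 17 tested adherens junction genes was Cdh17, an intestinal and liver cadherin, which averaged 7.83 ± 0.63 in BRAF BMDC and 5.36 ± 0.20 in WT BMDC (SD, n = 3 each). Its difference was 2.48 ± 0.39 (adjusted p = 0.00822, limma). In lung CD11b+ cells the 1 of 16 tested regulators past the threshold was Ehf, an ETS factor of epithelial cells. It averaged 6.26 ± 0.46 in BRAF and 8.04 ± 0.02 in WT (SD, n = 2 each), a difference of -1.78 ± 0.31. As for Cldn1 in that contrast, these Ehf values are a description with no test.

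Zeb2, a repressor of E-cadherin that dendritic cells and macrophages also use, was lower in lung CD103+ than in lung CD11b+ cells of WT, with a difference of -3.81 ± 0.68 (adjusted p = 0.00396, limma). Its difference in BRAF was -1.58 (adjusted p = 0.573). Ehf was lower in lung CD103+ cells of WT as well, with a difference of -1.99 ± 0.31 (adjusted p = 0.00132). The same WT lung CD11b+ arrays enter this and the Ehf genotype difference above, so the 2 are not independent. In BRAF the calls between the lung populations included Cdh17 (2.35 ± 0.48, adjusted p = 0.02), the protease inhibitor Spint2 (2.11 ± 0.25, adjusted p = 0.00022) and the E-cadherin repressor Zeb1 (1.54 ± 0.30, adjusted p = 0.0166), each higher in lung CD103+ cells. The junctional plakoglobin gene Jup was lower in liver than in lung CD11b+ cells of WT, with a difference of -2.10 ± 0.45 (adjusted p = 0.0301). Nectin1, which encodes an adhesion receptor of adherens junctions, was lower in BMDC than in the organ populations, with differences of -2.28 ± 0.22 in BRAF (adjusted p = 1.09e-05) and -2.86 ± 0.22 in WT (adjusted p = 9.33e-07).

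Other marker lists moved beside these results. The 22 genes of mature dendritic cells on the array summed to 6843 to 8860 on the BRAF lung CD11b+ arrays, against 19582 to 21158 in WT. They summed to 7398 to 12560 in BRAF BMDC and 19562 to 20189 in WT BMDC, and to 3903 to 5250 in BRAF and 7670 to 11262 in WT liver CD11b+ cells. In lung CD103+ cells the sums were 9964 to 16766 in BRAF and 18738 to 20095 in WT. BRAF sums lay below WT sums in all 4 populations, as Cldn1 did. The 12 conventional dendritic cell markers also summed lower in BRAF lung CD11b+ cells, to 39276 to 46148 against 53693 to 53897 in WT. They were lower without overlap in BRAF BMDC too, and overlapped in liver CD11b+ and lung CD103+ cells. In lung CD11b+ cells the 7 CD11b+ dendritic cell markers summed to 11040 to 14753 in BRAF and 19953 to 20199 in WT. The 16 markers of B, T, NK and plasma cells summed there to 2889 to 4453 in BRAF and 5328 to 5594 in WT. The 10 lung CD103+ dendritic cell markers summed to 22538 to 28655 in BRAF and 29044 to 33371 in WT lung CD103+ cells. Each of these lists other than the mature genes overlapped in liver CD11b+ cells. The part of any list in the Cldn1, Jaml and Epcam differences was not tested. Macrophage markers summed to 22399 to 33290 in BRAF lung CD11b+ cells and 15671 to 17239 in WT.

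Epithelial RNA would carry several of these genes. The 20 lung epithelium markers summed to 3365 to 3474 in BRAF lung CD11b+ cells and 4617 to 5028 in WT, and to 3376 to 3389 in BRAF and 3017 to 3471 in WT liver CD11b+ cells. The 8 cholangiocyte markers, of bile duct epithelium, summed to 647 to 675 in BRAF and 690 to 934 in WT liver CD11b+ cells. The 13 hepatocyte markers split the liver arrays, with BRAF replicate 2 at 6759 and WT replicate 1 at 6705, against BRAF replicate 3 at 2154 and WT replicate 3 at 2466. F11r read higher on the same 2 arrays, at 10.22 and 9.58, than on the other 2, at 8.96 and 8.58. The lowest, WT replicate 3, is an array of narrow spread. By rank the same 2 arrays stood at percentiles 93.84 and 90.83, against 82.97 for BRAF replicate 3 and 86.1 for WT replicate 3. The part of hepatocyte RNA in this was not tested. BMDC, which were grown from marrow, gave lung epithelium sums of 2537 to 3179 in BRAF and 3660 to 3806 in WT. One array stood apart, BRAF lung CD103+ replicate 1 at 14070, against 4375 for BRAF replicate 2 and 3484 to 5867 in WT, with Scgb1a1, a secretory airway gene, at 12.74. Its hepatocyte markers summed to 6207, against 2374 on BRAF replicate 2 and 2947 to 4259 in WT. On that array Cldn1, Jaml, F11r and Epcam read below BRAF replicate 2, Cdh1 read 8.59 against 8.63, and Tjp1 (5.65 against 5.13) and Ocln (5.13 against 4.66) read above it. The surfactant gene Sftpc read 10.53 and 9.91 in BRAF and 9.67 and 7.52 in WT lung CD103+ cells, and 8.01 and 8.35 in BRAF and 8.90 and 10.25 in WT lung CD11b+ cells. The part of epithelial RNA in the lung values was not tested.

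**Figure D4:**
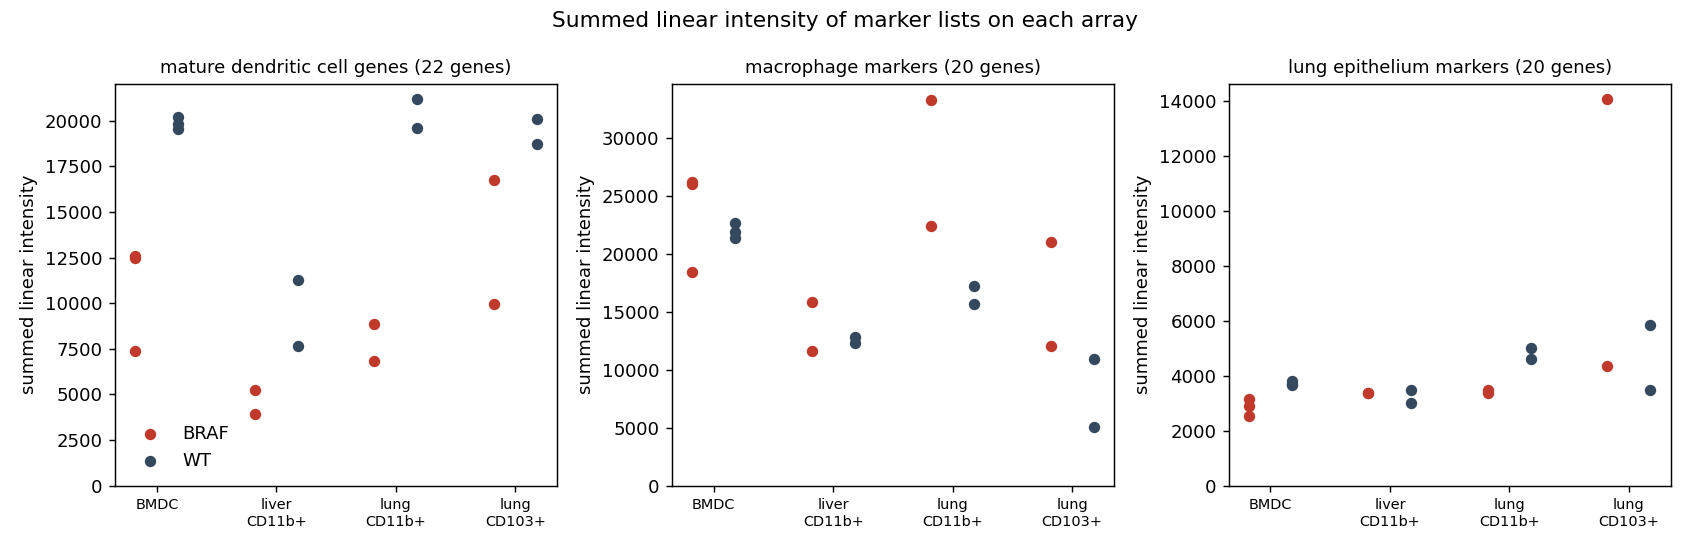
Summed linear intensity of 3 marker lists on every array, BRAF points left of WT points. The mature dendritic cell genes sum lower in BRAF in all 4 populations (6843 to 8860 against 19582 to 21158 in lung CD11b+ cells), and BRAF lung CD103+ replicate 1 stands apart for lung epithelium markers at 14070.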

How the data were processed

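RNA of 18 samples was measured on 1-colour arrays. The deposited values are intensity on a linear scale, with 1 value per probe set and array, and the sources used here do not say how the authors made and normalized these intensity values. Any compression or scaling at that stage would change the differences reported. Log2 was taken here with no constant added and no further normalization. Of 24922 probe sets, 21425 had 1 symbol in the platform's gene table, which can be old, and the highest-mean probe set stood for each gene. The 15365 genes above the 30th percentile of at least 2 arrays entered a fit by limma (version 3.58.1, under R 4.3.3). The fit took a mean per group over all 18 arrays (10 residual and 4.83 prior degrees of freedom). It was also run on simulated arrays with independent noise, and no result above rests on that run, whose outcome is not given. P-values were adjusted by Benjamini-Hochberg over all genes tested. The number of arrays limits the precision. The members and the 19 other gene lists (285 of 311 entries on the array) were chosen with earlier results of these data known. The text names the members, some of the list genes that were called, a few marker genes, and the 3 genes most correlated with each member. List genes called by genotype in BMDC but not described above include Ccr7, of the mature dendritic cell list, and Ngp. The sort markers Itgae and Itgam are no finding between populations. Tables were handled in Python 3.11.15.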

Additional observations from a re-analysis of the deposited data

Results flagged for a closer look

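Tjp1, the ZO-1 gene, was singled out because its genotype differences ran in opposite directions. The BRAF minus WT difference was 0.95 in BMDC, where each BRAF array lay above each WT array in log2 signal. By rank within the array the BMDC genotypes overlapped, at percentile 23.91 for BRAF replicate 2 and 24.87 for WT replicate 1. The difference was -0.54 in liver CD11b+ cells and -0.29 in lung CD11b+ cells, where each BRAF array lay below each WT array. The F test over BMDC, liver CD11b+ and lung CD103+ cells gave an adjusted p of 0.155 (limma), and BMDC against lung CD11b+ cells was not tested. Tjp1 lay under the 30th percentile on 15 of the 18 arrays.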

How the results depend on the processing

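Of the alternatives tried, 915 member values kept their direction and their side of the threshold, 48 lost a call, 16 gained one and 24 changed sign. The single BMDC call, Tjp1 by genotype, went to 0 with quantile normalization, median centring, no filter, a filter at the 50th percentile, only the groups compared, and the replicate block (adjusted p = 0.0869), and the count was 4 with array weights. In lung CD11b+ cells the count of 1 was 0 with median centring or only the groups compared, and 2 with array weights. Between the lung populations the WT count of 2 was 1 with median centring or no filter and 3 with array weights or without the narrow arrays, where Cldn1 was added, and the BRAF count of 3 was 2 with median centring, array weights or without the narrow arrays, and 1 with only the groups compared. These counts include Cldn1, which the text describes without a test. Liver minus lung CD11b+ in WT went to 0 with quantile normalization, array weights or without the 2 arrays of narrowest spread, an alternative chosen after seeing the data. BMDC minus organs was 2 in WT with array weights, without those 2 arrays or with only the groups compared, and 1 in BRAF with only the groups compared. The BRAF count of 3 there was 4 with quantile normalization (Epcam, adjusted p = 0.0492) and array weights (0.0416), and 2 without the narrow arrays or with the filter at the 50th percentile. The F test gave 1 call with array weights (Tjp1, adjusted p = 0.0341), under the same limit of the filter. The cause of these shifts was not tested.

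Leaving out 1 array at a time gave counts of 0 to 1 for BMDC and lung CD11b+ by genotype, 0 to 0 for liver CD11b+ and lung CD103+, 1 to 3 in BRAF and 0 to 1 in WT between the lung populations, 0 to 0 in BRAF and 0 to 1 in WT for liver minus lung CD11b+, 2 to 4 in BRAF and 1 to 1 in WT for BMDC minus organs, and 0 to 1 for the F test. Cldn1, BMDC minus organs in BRAF (0.01), was -0.060 with quantile normalization, -0.066 with median centring and -0.38 to 0.60 when an array was left out. Jaml there was 0.11 without the narrow arrays and -0.63 to 0.11 when an array was left out. The other ranges with an array left out were -0.17 to 0.68 for Cdh1 by genotype in BMDC, -0.15 to 0.36 for Tjp1 in lung CD103+ cells and -0.12 to 1.14 for F11r in liver CD11b+ cells. Between the lung populations they were -0.78 to 0.45 in BRAF and -0.068 to 0.58 in WT for F11r, -0.47 to 0.52 for Cdh1 in BRAF and -0.16 to 0.35 for Tjp1 in BRAF. For liver minus lung CD11b+ they were -1.14 to 0.12 for F11r and -0.11 to 0.52 for Jaml in BRAF, and -0.17 to 0.14 for Tjp1 in WT. Epcam, BMDC minus organs in WT, ranged from -0.39 to 0.027.

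Counts over all genes moved more. Array weights called 1656 genes in BMDC against 80, 369 in lung CD11b+ cells against 52, 1 in liver CD11b+ cells against 33, and 1280 between the WT lung populations against 576, and only the groups compared called 0 in lung CD103+ cells against 13. With 1 array left out the counts fell as low as 20 in BMDC and were 15 to 358 in liver CD11b+ cells, 7 to 97 in lung CD11b+ cells, 3 to 96 in lung CD103+ cells and 14 to 2093 (against 319) for liver minus lung CD11b+ in WT, so the shares of all genes rest on single arrays too. Whether replicate numbers pair samples is not stated. For the BMDC samples the correlations of deviations from the group means were 0.469, -0.231 and -0.399 for numbers 1, 2 and 3. These cannot decide it, since 1 array of narrow spread enters all the BRAF BMDC deviations. For the lung populations the correlation was 0.220 in BRAF and 0.160 in WT. In groups of 2 the deviations mirror each other, so both numbers give the same value and pairing cannot be judged. The block changed no member call there. Groups of 2 arrays limit what could be called.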

Other observations

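Between cultured and organ cells, 6.27% of all genes were called in BRAF and 15.9% in WT, and some junction genes outside the members were among them. Higher in BMDC in both genotypes were Cgnl1, which encodes the junction protein paracingulin (1.42 ± 0.26 in BRAF, adjusted p = 0.00369, and 1.78 ± 0.26 in WT, adjusted p = 0.000341), and the plakophilin gene Pkp4 (1.00 ± 0.28, adjusted p = 0.0461, and 1.51 ± 0.28, adjusted p = 0.00192; limma). Lower in both were Itga4 (-1.63 in BRAF and -2.22 in WT), an integrin subunit that binds VCAM-1, and Marveld2 (-0.74 and -0.60), which encodes tricellulin. Culture, age and sort differ together there and cannot be told apart.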
